A study of Mus musculus with 6 samples.

Results

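The genes followed here are the forkhead transcription factors Foxo1, Foxo3 and Foxo4 and 6 genes that restrain division or glucose use, namely Txnip, Ccng2, Btg1, Tob1, Pdk2 and Pdk4. They were chosen by name, with earlier results of these data known. Each of the 9 matched 1 of the 41128 rows of the deposited table through its Ensembl ID. Poly(A) RNA was sequenced from bone marrow of C57BL mice, sorted as Lin-Sca1+c-Kit+CD41-CD48-CD150+ cells, the surface pattern of long-term repopulating hematopoietic stem cells. The control group held 3 libraries from mice given DMSO, the solvent. The other group held 3 libraries from mice given YH250, which the submitters call a p300/catenin antagonist. Its dose was 2 mg per kg, injected subcutaneously. Marrow was taken 16 h after either injection. Age, sex and any pooling of animals are not given in the labels, so the p-values below measure only the spread between these libraries. The libraries of each group carry the numbers 1 to 3.

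Foxo proteins are transcription factors that growth factor signals switch off: the kinase Akt, acting downstream of PI3K, phosphorylates them and so keeps them out of the nucleus. When that signal is low they enter the nucleus and turn on genes of cell cycle arrest, oxidant defence and cell death. In blood stem cells they are known for keeping the cells quiescent, and loss of Foxo3 in particular shortens their long-term function. Their control is largely at the level of the protein, which RNA does not show.

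Expression is given as RPM, reads scaled to a common total per library. An estimated 18240000 to 24300000 reads per library fell in genes, and a gene at 1 RPM rested on 21.96 to 31.19 reads. The libraries numbered 3 stood apart most by their cell type markers, and those numbered 2 differed from number 1 in part of them. The summed level of 10 long-term stem cell markers was 900.1 to 1138 RPM in numbers 1 and 2 and 310.2 and 216.5 RPM in DMSO 3 and YH250 3. The sum of 5 progenitor markers (Flt3, Cd48, Dntt, Satb1 and Notch1) ran from 62.5 and 87.4 RPM in number 1, through 394 and 549 RPM in number 2, to 1421 and 1334 RPM in number 3. Ighm, which made up most of that list's sum, was left out of it after its values were seen. With Ighm counted, the sum still rose from number 1 to number 3, but YH250 exceeded DMSO at each number. It was then 455.5 against 121.6 RPM at number 1, 3922 against 551.3 RPM at number 2, and 16680 against 7912 RPM at number 3. Slamf1, which encodes the CD150 selected by the sort, was at 35.5 and 31.6 RPM in number 1 but at 0.515 to 4.69 RPM in the other 4 libraries. Cd48, whose product the sort was to exclude, was at 10.2 to 66.9 RPM in numbers 1 and 2 and at 257.9 and 252 RPM in number 3, which goes against the labelled cell type there. YH250 2 had the highest sum of 8 endothelial and stromal markers, 383 RPM against 49.5 to 97.5 RPM in the other 5 libraries.

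Both members that differed between replicate numbers, Txnip and Btg1, carry the forkhead core motif GTAAACA in the promoter, and these are the sequences shown. The RefSeq promoter table (GRCm38.p6, the assembly also called mm10) gives 300 bases per start site, from 250 before to 50 after it, and held 8 of the 9 genes, not Foxo4, with 9 promoters. The Txnip promoter lies at chr3:96557707-96558006 and the Btg1 promoter at chr10:96616751-96617050, both on the plus strand and both printed 5′ to 3′. Capitals mark GTAAACA on either strand and, in Txnip, a pair of CACGAG copies 5 bases apart.
Txnip: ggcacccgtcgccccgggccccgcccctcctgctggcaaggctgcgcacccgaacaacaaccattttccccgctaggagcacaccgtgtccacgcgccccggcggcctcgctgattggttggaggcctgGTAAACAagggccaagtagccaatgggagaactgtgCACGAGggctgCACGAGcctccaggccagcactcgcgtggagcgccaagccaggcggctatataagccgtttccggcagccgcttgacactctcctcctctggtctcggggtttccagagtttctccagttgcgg
Btg1: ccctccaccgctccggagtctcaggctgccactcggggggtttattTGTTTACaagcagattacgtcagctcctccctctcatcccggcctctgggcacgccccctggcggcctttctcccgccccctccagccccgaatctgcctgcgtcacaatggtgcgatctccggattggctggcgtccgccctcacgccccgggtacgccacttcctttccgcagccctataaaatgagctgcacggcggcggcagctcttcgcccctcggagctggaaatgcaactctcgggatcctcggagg

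In Txnip the GTAAACA match runs along the gene's own strand at chr3:96557836-96557842, 121 to 115 bases before the start site. That position is outside Txnip and inside an exon of the antisense gene Gm15441. In Btg1 the match is on the opposite strand, at chr10:96616797-96616803, 204 to 198 bases before the start and between annotated genes. No promoter of the other 6 genes held the motif within these windows. GTAAACA, searched on both strands, was in 1199 of 32851 promoters (3.65%). Of the tested genes with a promoter in the table, 316 of 9985 held it. Among these 316, 16 (5.06%) were higher and 15 (4.75%) lower in number 3 than in number 1, beside 484 (4.85%) and 317 (3.17%) of all 9985. The paired CACGAG copies, at chr3:96557872-96557888, are of the form bound by the glucose-sensing factors Mlxip and Mlx, and were searched for after the Txnip sequence had been read. That arrangement occurred in 1 of the 32851 promoters, the one of Txnip. The match in Txnip was certain, since its own letters were searched. Variant forms were not searched, so the count does not show how rare such sites are. The E-box CACGTG was in 7.15% of promoters and, among the 8 genes searched, in Pdk2 alone. A match describes letters in a window, not an occupied site.

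Foxo3 was the most abundant of the 3 Foxo transcripts. Per kilobase of exon, the mean levels over 6 libraries were 8.35 RPM for Foxo3, 2.66 RPM for Foxo1 and 0.679 RPM for Foxo4, and this order held in 6 of 6 libraries. The DMSO libraries 1, 2 and 3 held 53.1, 61.9 and 68.1 RPM of Foxo3 (chromosome 10, 42181841 to 42276755), and the YH250 libraries 1, 2 and 3 held 41.0, 103 and 52.0 RPM. The treated libraries lay on both sides of the control range, with YH250 2 the highest of all. Foxo1 (chromosome 3, 52268336 to 52353221) measured 26.1, 17.6 and 31.3 RPM without and 20.4, 18.1 and 24.99 RPM with YH250, in the order of the numbers. Both libraries numbered 2 were the lowest, as for 9.51% of tested genes. Foxo1 was the steadiest tested member, with a log2 standard deviation over the 6 libraries of 0.31 against a median of 0.45 for all tested genes. Foxo4 (X chromosome, 101254528 to 101260873) was scarce: the DMSO libraries held 3.49, 0.957 and 2.37 RPM and the YH250 libraries 1.47, 3.24 and 2.67 RPM. Its lowest value rested on about 26 reads.

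The effectors spanned a far wider range of abundance. Txnip, which binds thioredoxin and limits glucose uptake, had the highest level per kilobase (126 RPM), followed by Btg1, an antiproliferative protein that recruits the deadenylase complex to messenger RNA (61.4 RPM). Neither was above the other in all libraries: Txnip led per kilobase in 4 of 6 and Btg1 in the 2 numbered 3. Tob1, a relative of Btg1 with the same partner complex, followed at 11.0 RPM per kilobase. Ccng2, an unconventional cyclin that rises in cells leaving the cycle, was at 8.34 RPM per kilobase and changed places with Foxo3 in 3 of 6 libraries. Pdk2 and Pdk4 encode kinases that shut pyruvate dehydrogenase and so keep pyruvate out of the mitochondrial citrate cycle. They were at 3.79 and 0.241 RPM per kilobase. Both were below the other kinases of the family, Pdk3 at 23.8 RPM and Pdk1 at 6.68 RPM per kilobase in mean. Pdk4 did not reach the minimum mean of 1 RPM, so 8 of the 9 genes were tested.

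**Figure D1:**
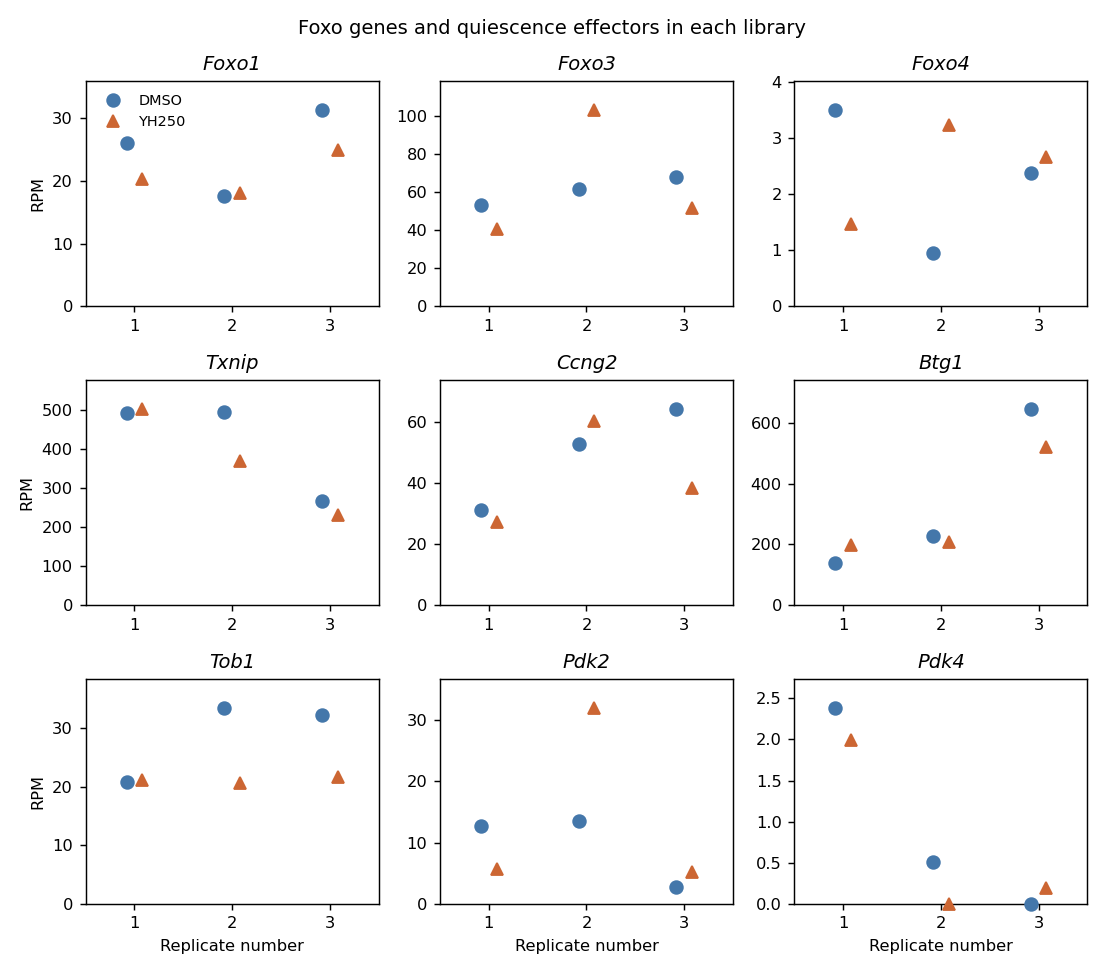
Level of each of the 9 genes (RPM, linear axes from 0) by replicate number, with DMSO libraries as circles and YH250 libraries as triangles, 1 point per library. Txnip is lowest and Btg1 highest in the libraries numbered 3, Pdk4 is near 0 outside number 1, and no gene separates the triangles from the circles.

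None of the 8 tested genes differed between YH250 and DMSO. Their log2 differences, on the log2(RPM + 1) scale, ran from -0.40 (Tob1) to 0.28 (Pdk2) with a median of -0.10, beside 0.02 for all tested genes. The test was limma over 13597 genes with Benjamini-Hochberg adjustment. It called 0 genes (0%) at an adjusted p under 0.05, and 231 genes (1.70%) had an unadjusted p under 0.05, none of them among the 8. Each of the 8 had an adjusted p of 0.999. With the number as a replicate block, 1012 genes (7.44%) had an unadjusted p under 0.05, again none of the 8, and 0 genes were called. No gene of the 9 had its 3 treated libraries all above or all below the controls, which happened for 516 (3.79%) and 501 (3.68%) of tested genes.

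Tob1 (chromosome 11, 94211454 to 94215495) had the lowest difference. The DMSO libraries held 20.8, 33.5 and 32.4 RPM and the YH250 libraries 21.1, 20.8 and 21.8 RPM, means of 28.9 ± 7.01 and 21.2 ± 0.514 RPM (SD, n = 3 each). The treated libraries were close together and level with the lowest control, DMSO 1. The log2 difference was -0.40 ± 0.29 (SE), with a 95% interval of -1.05 to 0.25. The interval for Txnip was -0.98 to 0.58, for Ccng2 -1.08 to 0.59, for Foxo1 -0.91 to 0.50 and for Foxo3 -0.78 to 0.76. Those of Btg1 (-1.38 to 1.42) and Pdk2 (-1.43 to 2.00) were the widest. With the number as a replicate block the estimates were the same and the intervals narrower. They were then -0.39 to 0.44 for Btg1, -0.55 to 0.16 for Txnip, -0.75 to 0.27 for Ccng2 and -0.96 to 0.16 for Tob1. Those of Foxo1 (-0.76 to 0.34), Foxo3 (-0.55 to 0.54), Pdk2 (-0.75 to 1.32) and Foxo4 (-0.95 to 1.20) also held 0.

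Within a number the treatment difference changed sign for each of the 8 tested genes. Foxo3 had log2 differences of -0.37, 0.73 and -0.38 at numbers 1, 2 and 3, and Pdk2 had -1.06, 1.19 and 0.72. Ccng2 (chromosome 5, 93267257 to 93276231) had -0.19, 0.19 and -0.73, and Btg1 0.50, -0.12 and -0.31. Foxo4 had -0.86, 1.12 and 0.12. Txnip, with 0.03, -0.42 and -0.20, Tob1, with 0.02, -0.67 and -0.55, and Foxo1, with -0.34, 0.03 and -0.31, each had 2 values below 0 and 1 barely above it. Over all tested genes, 15.0% were lower and 16.1% higher in YH250 at all 3 numbers.

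**Figure D2:**
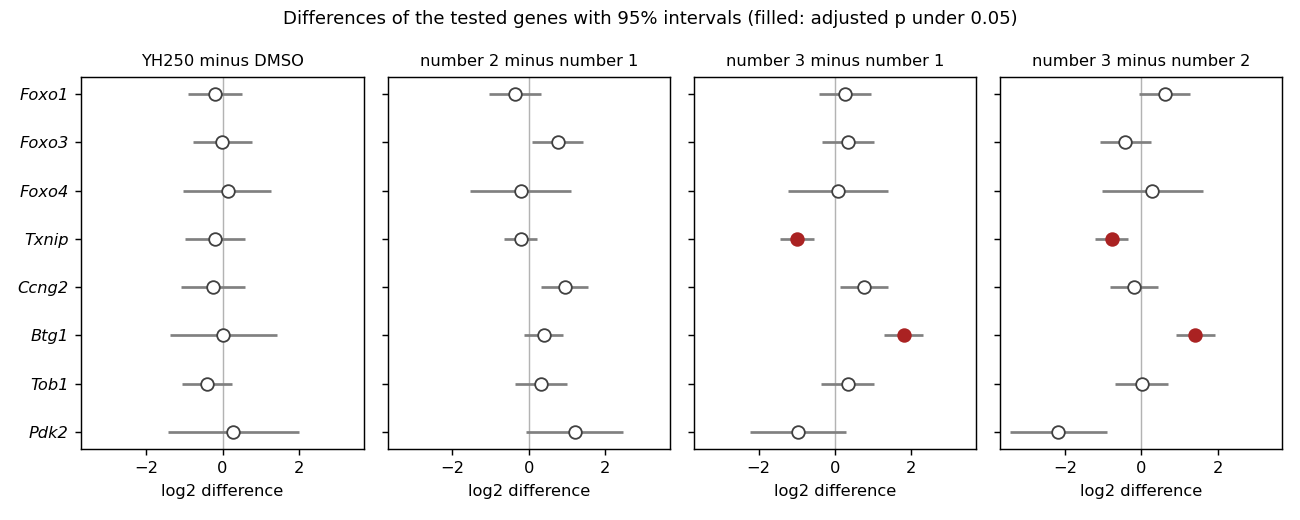
Log2 differences of the 8 tested genes (circles) with 95% intervals (lines) for YH250 minus DMSO and for the 3 contrasts between replicate numbers; filled circles passed at an adjusted p under 0.05. Only Txnip and Btg1 are filled, in both contrasts with number 3 and in opposite directions.

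The replicate number, by contrast, separated Txnip and Btg1. Txnip (chromosome 3, 96557957 to 96561883) measured 492 and 503 RPM in the pair numbered 1, DMSO first. The pair numbered 2 held 496 and 370 RPM and the pair numbered 3 held 268 and 232 RPM. Both libraries numbered 3 were below the other 4, as for 14.3% of tested genes. Btg1 (chromosome 10, 96617006 to 96622809) measured 139.8 and 198 RPM in the pair numbered 1. The pair numbered 2 held 228 and 209 RPM and the pair numbered 3 held 647 and 523 RPM. Both libraries numbered 3 were above the other 4, as for 19.9% of tested genes. Contrasts between numbers were fitted with limma over all tested genes with a term for treatment, and each number had 2 libraries.

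Txnip fell and Btg1 rose in number 3. Against number 1, Txnip had a log2 difference of -0.99 ± 0.19 (SE; adjusted p = 0.0142, limma) and Btg1 one of 1.8 ± 0.23 (adjusted p = 0.00147, limma), a 3.48-fold higher level. Against number 2 the values were -0.78 ± 0.19 for Txnip (adjusted p = 0.0458, limma) and 1.41 ± 0.23 for Btg1 (adjusted p = 0.00916, limma). These were 2 of 8 members in each contrast. Of all 13597 genes, 8.56% were called between numbers 3 and 1 (5.60% higher, 2.96% lower) and 6.31% between numbers 3 and 2 (3.67% higher, 2.64% lower). The Txnip call against number 1 was lost without YH250 1 (adjusted p = 0.124, limma). Against number 2 it was lost without DMSO 2 (adjusted p = 0.189, limma), DMSO 3 (0.0664) or YH250 2 (0.0757), whereas Btg1 stayed called in both contrasts with any 1 library left out.

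Scaling did not turn either gene. With the libraries rescaled to equal gene sums, the median of all genes between numbers 3 and 1 moved from 0.04 to -0.28, and 34.3% of called genes were higher in number 3 instead of 65.4% (49.3% after quantile normalization). Txnip was then at -1.35 and Btg1 at 1.44, both still called (adjusted p = 0.00276 and 0.00394, limma). The uncalled differences of Foxo1 (0.27), Foxo3 (0.34), Foxo4 (0.08) and Tob1 (0.33) between the same numbers all changed sign under that rescaling.

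Between numbers 3 and 1 the levels of Txnip and Btg1 moved with markers of cell identity. Of 10 long-term stem cell markers, 9 were called lower in number 3, beside 2.96% of all tested genes (median log2 difference -2.21, beside 0.04). Of 6 multipotent and lymphoid-primed progenitor markers 5 were called higher (median 3.97), beside 5.60% of all tested genes. So were all 8 tested B cell markers (median 3.75) and 5 of 9 T and NK cell markers (median 2.17). Of 7 tested erythroid and megakaryocyte markers 4 were called lower (median -2.31). Between numbers 2 and 1, 4 of 6 progenitor markers were called higher (median 2.25), beside 0.177% of all tested genes. Neither Txnip (-0.21) nor Btg1 (0.39) was called there, nor was any stem cell, B cell or T and NK cell marker. The summed B cell markers were 59.4 to 269 RPM in numbers 1 and 2 and 669 and 790 RPM in number 3. The summed T and NK cell markers were 64.7 to 215 RPM and then 522 and 517 RPM. Pax5, which defines committed B cells, stayed between 0 and 0.273 RPM in every library, while Cd3e reached 13.5 RPM. The part of these cells in the levels of Btg1 and Txnip was not tested, and in bulk RNA a change in the share of a cell type and a change of RNA within each cell cannot be told apart.

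**Figure D3:**
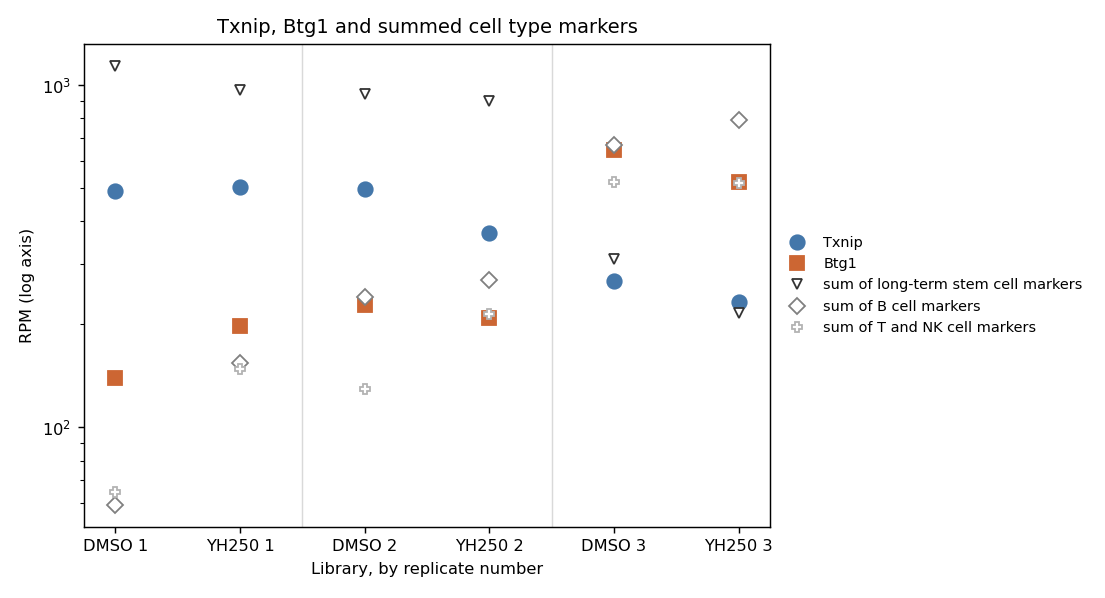
Level of Txnip and Btg1 and summed level of 3 marker lists (RPM, log axis) in each library, grouped by replicate number. In both libraries numbered 3 the Btg1 point and the lymphoid sums are at their highest, and the Txnip point and the stem cell sum at their lowest.

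Genes of proliferation were also higher in number 3. Of 14 listed, 5 were called higher than in number 1, beside 5.60% of all tested genes (median log2 difference 0.72, beside 0.04), among them Rrm2, a ribonucleotide reductase subunit, the mitotic checkpoint kinase Bub1 and the mitotic cyclin Ccnb1. Rrm2, Bub1 and Ccnb1 each lost the call without DMSO 3 (adjusted p = 0.14, 0.246 and 0.4, limma). Bub1 and Ccnb1 also lost it without YH250 3 (0.0982 and 0.0852), Bub1 without YH250 1 (0.116), and Ccnb1 without DMSO 1 (0.381) and after rescaling (0.84, adjusted p = 0.0877, limma). Against number 2, 7 were called higher, beside 3.67% of all tested genes (median 0.97, beside 0.08). Rrm2 (1.56) lost this call with no treatment term (adjusted p = 0.163, limma). Under that setting Rrm2 (0.13) and Ccnb1 (0.0815) also lost the call against number 1. Without DMSO 3, Rrm2 was at 1.08 and Bub1 at 1.67 against number 2, and neither stayed called. The summed level of the 14 listed genes was 1781 and 2002 RPM in number 3 and 715 to 1209 RPM in the other 4 libraries. The antiproliferative gene Btg1 was highest in the libraries in which proliferation genes were highest. In the treatment comparison 13 of the 14 were higher in mean in YH250, with a median of 0.49, beside 51.7% of all tested genes with a median of 0.02, and none was called. In the same comparison 8 of 9 T and NK cell markers (median 1.13) and 8 of 8 B cell markers (median 0.56) were higher in mean, and 8 of 10 long-term stem cell markers were lower (median -0.38), with none called. Their part was not tested. Those of largest difference were Rrm2 (1.16) and the mitotic kinase gene Aurka (0.99).

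Pdk2 (chromosome 11, 95026258 to 95041354) varied most, 11.5-fold between its lowest and highest library. The DMSO libraries held 12.8, 13.5 and 2.78 RPM and the YH250 libraries 5.61, 32.02 and 5.21 RPM. Both libraries numbered 3 were the lowest, close to YH250 1. Both numbered 2 were the highest, as for 9.69% of tested genes. The log2 difference of numbers 3 and 2 was -2.17 ± 0.56 (SE; adjusted p = 0.0521, limma), which did not pass. With a library left out, this difference ranged from -2.85 to -1.49. Whether it passed depended on the settings. It passed with a pseudocount of 5 (adjusted p = 0.0465, limma), a minimum mean of 5 RPM (0.0242), quantile normalization (0.047) and rescaling (0.0453). It did not pass with no minimum mean (adjusted p = 0.238, limma), with a pseudocount of 0.25, or without trend and robust. The stromal genes Cxcl12 (202 RPM, against 1.73 to 36.3 RPM elsewhere) and Lepr (58.2 RPM, against 0.0455 to 7.99 RPM) were highest in YH250 2 as well. Their part in the Pdk2 level was not tested.

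Pdk4 (chromosome 6, 5483351 to 5496309) was detected mainly in number 1. DMSO 1 held 2.38 RPM and YH250 1 held 1.99 RPM, each about 62 reads, while DMSO 2 held 0.512 RPM and YH250 3 held 0.187 RPM. It was listed at 0 in YH250 2 and DMSO 3, where a count of 0 allows up to 3 reads, or 0.120 and 0.137 RPM, for counting error only. Both libraries numbered 1 were above the other 4, as for 9.58% of tested genes.

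Ccng2 was lowest in both libraries numbered 1, as for 10.6% of tested genes, but did not pass. The DMSO libraries held 30.9, 52.6 and 64.1 RPM and the YH250 libraries 27.0, 60.1 and 38.3 RPM. Its log2 difference of numbers 2 and 1 was 0.94 ± 0.28 (SE; adjusted p = 0.219, limma), where 27 genes (0.199%) were called in all, 24 higher (0.177%) and 3 lower (0.0221%). Foxo3 had a difference of 0.76 ± 0.30 in the same contrast (adjusted p = 0.297, limma). Both depended on which library of number 2 was kept. With YH250 2 alone Ccng2 was at 1.26 and Foxo3 at 1.32 (adjusted p = 0.0106 and 0.00526, limma), and with DMSO 2 alone they were at 0.61 and 0.21 (0.335 and 0.803). In such fits the lone library is assumed to vary like those of the other numbers. With YH250 2 alone, 1764 genes were called. Of the profiles of the 8 genes over the 6 libraries, those of Foxo3 and Ccng2 were the closest pair, with a mean absolute difference of 0.228 on the centred log2 scale, and those of Btg1 and Pdk2 the farthest, at 1.45.

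Genes around the Foxo pathway moved in both directions between numbers 3 and 1. Of 24 known Foxo targets, 3 were called higher and 2 lower in number 3, beside 5.60% and 2.96% of all tested genes (median log2 difference 0.23, beside 0.04 for all genes). Among those higher were Il7r, the interleukin 7 receptor (1.01 and 6.33 RPM at number 1, 122 and 129.6 RPM at number 3), and the death inducer Bcl2l11 (4.03 and 6.82 RPM, then 34.4 and 27.7 RPM). Bcl2l11 lost its call without DMSO 3 (adjusted p = 0.189, limma). Lower were the death inducer Bbc3 (17.4 and 12.9 RPM, then 5.24 and 4.71 RPM) and the autophagy gene Gabarapl1 (149 and 139.5 RPM, then 61.8 and 56.2 RPM), both named after their values were seen. Il7r is also a known gene of lymphoid cells, and its values moved with the lymphoid markers above, whose part was not tested.

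Of 15 tested genes that control Foxo through PI3K and Akt, 1 was called higher and 2 lower in number 3 than in number 1. Of all tested genes, 5.60% were called higher and 2.96% lower in that contrast. The kinase genes Akt1 and Akt2 had log2 differences of -0.93 ± 0.22 and -0.88 ± 0.23 (SE; adjusted p = 0.0344 and 0.0455, limma). The related kinase Sgk3 had 1.05 ± 0.21 (adjusted p = 0.0154, limma). Sgk3 was not called after rescaling (0.70, adjusted p = 0.0626, limma). Akt1, Akt2 and Sgk3 each lost the call without DMSO 1 (adjusted p = 0.367, 0.373 and 0.0822, limma), DMSO 3 (0.34, 0.404 and 0.143) or YH250 1 (0.0541, 0.158 and 0.0771). Akt2 and Sgk3 also lost it without YH250 3 (adjusted p = 0.111 and 0.0577, limma). None of 14 partners and modifiers of Foxo was called (median 0.43), with Xpo1 at 0.80 and Mapk8 at 0.79. Nor was any of 11 relatives and partners of Btg1 and Tob1 (median 0.38), with Cnot6 at 0.84 and Btg2 at 0.79.

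Arrdc4, the arrestin relative of Txnip that is known to share its glucose-responsive control, fell with it. The DMSO libraries held 53.8, 34.8 and 18.3 RPM and the YH250 libraries 39.8, 22.6 and 12.9 RPM. The log2 difference of numbers 3 and 1 was -1.53 ± 0.28 (SE; adjusted p = 0.00948, limma). Arrdc4 was the only one of 11 genes around Txnip to be called in that contrast, beside 8.56% of all tested genes. It was not called without DMSO 1 (adjusted p = 0.0768, limma), DMSO 3 (0.122) or YH250 1 (0.0614). The factors Mlxip and Mlx themselves, with 16.2 to 45.6 and 6.25 to 34.7 RPM over the libraries, were not called. Of 11 genes of pyruvate dehydrogenase and its control 1 was called, beside 8.56% of all tested genes. This was Mpc1, a subunit of the mitochondrial pyruvate carrier, which was higher (1.10 ± 0.26, adjusted p = 0.031, limma). It lost the call after quantile normalization (0.80), after rescaling (0.74), and without DMSO 1 (0.75) or DMSO 3 (0.66). None of 4 relatives and partners of Ccng2 was called, with Ccng1 at 0.46 and Ccni at 0.42.

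**Figure D4:**
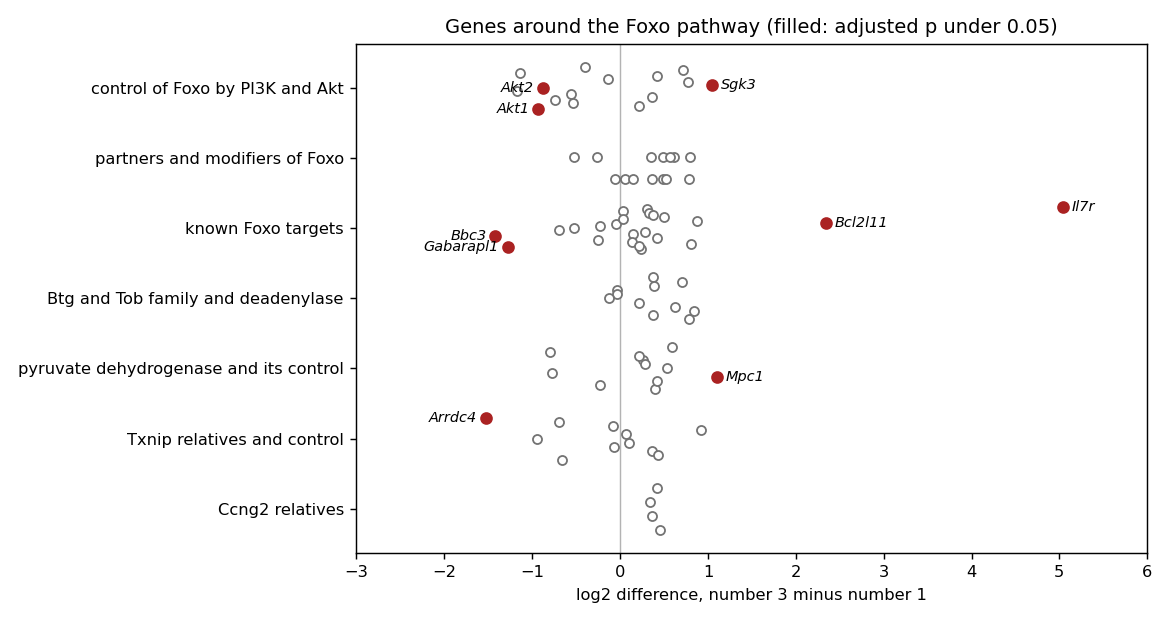
Log2 difference of number 3 minus number 1 for tested genes of 7 lists around the 9 genes; filled circles, with names, passed at an adjusted p under 0.05. Known Foxo targets hold the largest rise shown (Il7r) as well as 2 of the falls.

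No gene of these lists was called between YH250 and DMSO. Those of largest difference were Rictor, a subunit of a kinase complex that acts on Akt (control mean 52.3 ± 1.72 RPM, treated mean 28.8 ± 6.42 RPM, SD, n = 3; log2 difference -0.86 ± 0.25, SE), the glucose transporter Slc2a1 (0.81 ± 0.46) and Il7r (0.99 ± 1.94). With the number as a replicate block the estimates were the same. The SE was then 0.21 for Rictor, 0.39 for Slc2a1 and 0.37 for Il7r (adjusted p = 0.66 each, limma). Il7r was higher with YH250 at all 3 numbers, as for 16.1% of tested genes. It measured 6.33 against 1.01, 9.46 against 4.20 and 129.6 against 122 RPM. Rictor was lower with YH250 at all 3 numbers, as for 15.0% of tested genes. The known Foxo targets had 7 members higher and 17 lower in mean, with a median of -0.10. Of all tested genes 51.7% were higher, with a median of 0.02. Pdpk1, which activates Akt, and the phosphatase Inpp5d had log2 differences of -0.56 and -0.54. For the other lists the 2 largest were Ywhag (-0.57) and Xpo1 (-0.44), Cnot6 (-0.58) and Btg2 (0.43), Pdp1 (-0.77) and Pdhx (-0.59), and Gak (0.21) and Ccng1 (0.20). Arrdc2, another arrestin relative, was at 0.66. Without YH250 2, Rictor was at -0.69, Slc2a1 at 0.40, Il7r at 1.51, Pdpk1 at -0.29 and Inpp5d at -0.42. Ywhag was then at -0.12, Xpo1 at 0, Cnot6 at -0.22 and Btg2 at 0.15. Likewise Pdp1 was then at -0.11, Pdhx at -0.38, Gak at 0.11, Ccng1 at 0.06 and Arrdc2 at 0.5.

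The genes whose profiles over the 6 libraries were closest to each member were taken from 8513 tested genes (8514 for Foxo4) averaging 10 RPM or more, by the mean absolute difference of centred log2 values. For Txnip they were the membrane protein gene Mfsd6 (0.066) and Prdm16 (0.0666), a transcription factor of stem cells. Prdm16 measured 16.2 and 15.8 RPM at number 1 and 8.57 and 6.63 RPM at number 3. For Btg1 they were the mitochondrial protein gene Chchd10 (0.119) and Manf (0.162), a secreted factor of endoplasmic reticulum stress. For Pdk2 they were Nfkbil1 (0.149) and Raly (0.239), both highest in YH250 2 with 33.7 and 155 RPM. Foxo3 was closest to Carnmt1 (0.0575) and Zc3h12a (0.0827), and Foxo1 to Phospho2 (0.0506) and Atxn7 (0.0675). Ccng2 was closest to Lbhd1 (0.105) and Zbtb2 (0.113), Tob1 to Jade1 (0.0671) and Hnrnpll (0.0698), and Foxo4 to Slx4 (0.128) and Pcif1 (0.131). For scale, a profile with no variation lies at 0.263 from Foxo1, 0.401 from Txnip and 0.901 from Pdk2.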

How the data were processed

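The authors deposited 1 table of normalized signal per gene and library, with no stated unit. Its lowest value is 1 and the excess falls on multiples of 1 step per library, so it was read as RPM plus an offset of 1, which was subtracted. Of the values of up to 20 reads, 61.1% to 68.4% lay within 0.1 of a whole read, so no count model was used. Genes summed to 70.0% to 95.9% of the RPM total per library. Per the submitters' processing notes, CASAVA 1.8.2, TopHat2 2.0.8, Partek and mm10 were used. The gene annotation and strand use are not given in the sources used here, so reads of Txnip and its antisense gene Gm15441 (0.906 to 4.91 RPM) cannot be told apart. Symbols matched 40254 of 41128 genes. Positions and exon lengths are from GENCODE M21 (GRCm38).

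The 13597 genes averaging 1 RPM or more were analysed as log2(RPM + 1) by limma 3.58.1 (trend and robust; R 4.3.3), with Benjamini-Hochberg adjustment at 0.05, and the scripts were tested on simulated data. Treatment was fitted over all 6 libraries without a block. Libraries of the same number deviated together from their group means (correlations of 0.55, 0.26 and 0.70, all above 0.1, against -0.55 to 0.14 for different numbers), so the numbers were taken as pairs. Members and gene lists were chosen with earlier results of these data known. Besides the 9 members, the text names up to 3 called genes of each list, or the 2 of largest difference, and the 2 nearest profiles per member. One called gene of the list of known Foxo targets is counted in the list but neither plotted nor otherwise reported here.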

Additional observations from a re-analysis of the deposited data

How the results depend on the processing

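For YH250 minus DMSO, 0 genes were called under all 17 alternatives, and the paired fit (number as a replicate block, smallest adjusted p = 0.66, limma) changed no call of a named gene. Among named genes, 397 of 474 values with a library or number left out and 467 of 532 under other settings kept direction and call. Genes called between numbers 3 and 1 ranged from 417 to 3010 with a library left out, between 2 and 1 from 39 (without DMSO 1) to 1764 (without DMSO 2), and between 3 and 2 from 250 (without DMSO 3) to 3137 (without DMSO 2). With no minimum mean (27592 genes tested) they were 180, 0 and 42, and without trend and robust 526, 0 and 154. Between numbers 2 and 1, 75 were called at a minimum mean of 5 RPM and 46 after quantile normalization. Btg1 lost its call between numbers 3 and 2 with no minimum mean (adjusted p = 0.123, limma) and in both contrasts without trend and robust (0.0504 and 0.104). Txnip lost both calls under these same settings (0.086 and 0.176, then 0.136 and 0.203), and between numbers 3 and 2 also with a pseudocount of 0.25 (0.0538) and with no treatment term (0.0647). The cause was not tested. Differences changed sign after rescaling to equal gene sums for Foxo1 (-0.08), Foxo3 (-0.01), Foxo4 (-0.19) and Tob1 (-0.02) in 3 minus 1, Tob1 in 3 minus 2 (-0.23; quantile -0.02) and Btg1 in YH250 minus DMSO (-0.07; quantile -0.06). With a library or number left out, YH250 minus DMSO ranged for Btg1 from -0.46 to 0.64, Foxo3 -0.39 to 0.27, Foxo4 -0.37 to 0.62, Pdk2 -0.51 to 0.95, Ccng2 -0.54 to 0.03, Txnip -0.49 to 0.10, Il7r -0.31 to 2.74, Arrdc2 -0.21 to 1.22 and Ccng1 -0.09 to 0.38. The ranges in 3 minus 1 were -1.99 to 0.03 for Pdk2 and -0.66 to 0.82 for Foxo4, and in 2 minus 1 Foxo4 ran from -0.95 to 0.53. In 3 minus 2 they were -0.45 to 1.03 for Foxo4, -0.97 to 0.13 for Foxo3, -0.54 to 0.18 for Ccng2 and -0.19 to 0.21 for Tob1. Alternatives were not computed for Bbc3 and Gabarapl1 in 3 minus 1. A gene near 1 RPM rests on 21.96 to 31.19 reads, which limits Foxo4 and Pdk4.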

Other observations

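The ratio of Btg1 to Txnip in RPM rose with the replicate number. It was 0.284 and 0.394 in DMSO 1 and YH250 1, 0.46 and 0.565 in DMSO 2 and YH250 2, and 2.42 and 2.25 in DMSO 3 and YH250 3. These genes were picked for their opposite calls in number 3, so the separation of number 3 was fixed in advance. How often other pairs of genes separate the numbers was not computed. The ratio of Foxo3 to Foxo1 was near even across numbers 1 and 3, at 2.04, 2.01, 2.18 and 2.08, and higher in number 2, at 3.51 in DMSO 2 and 5.71 in YH250 2. Neither ratio was tested, since both were chosen after their values were seen.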
